A study of Mus musculus with 12 samples.

Results

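The genes described here are 10 chaperones that belong to the UNC45 family of myosin chaperones, the HSP90 family or the partners of HSP90. They are Unc45a and Unc45b, the HSP90 genes Hsp90aa1, Hsp90ab1 and Hsp90b1, the HSP70 gene Hspa8, and the HSP90 co-chaperones Stip1, Ahsa1, Fkbp4 and Cdc37. They were selected by gene symbol, with earlier results of these data known. All 10 were found among the 23923 genes of the files, and all 10 passed the filter on low values (0.1 FPKM or more in 6 or more libraries), as did 12695 genes in all. FPKM is a fragment number divided by transcript length and by how many reads of that library were mapped.

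RNA was sequenced from the tibialis anterior, a fast-twitch muscle of the lower leg, of 12 mice aged 6 weeks on a C57BL6/J;129S1/SvImJ background. Each of the 12 libraries came from 1 mouse. The 6 controls were Myf6 cre/+; Smyd1 flox/+, and so kept at least 1 working copy of Smyd1 in every cell. The 6 conditional knockouts (CKOs) carried Myf6 cre/+ with a floxed and a null Smyd1 allele, so that both groups carried the Cre and CKOs were also heterozygous for Smyd1 outside the Cre-expressing cells. According to the study's methods, both groups also carried a Rosa26 YFP reporter. Cre was expressed from the Myf6 locus, which is active in muscle fibres, and the muscle was sequenced whole. All 8 fast fibre markers were detected in every mouse, with a summed level of 22840 to 38520 FPKM in controls and 26280 to 31220 FPKM in CKOs.

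The motor domain of muscle myosin does not fold by itself. UNC45B, the striated muscle member of the UCS-domain family, binds the myosin motor and carries a TPR domain that docks onto HSP90. Its paralog UNC45A serves non-muscle myosins in most cell types. HSP90 is an ATP-driven dimer that receives partly folded proteins from HSP70 through the adaptor STIP1. Its cycle is sped up by AHSA1, loaded with kinases by CDC37 and modified by immunophilins such as FKBP4. SMYD1, a muscle methyltransferase, associates with myosin during sarcomere assembly, and its zebrafish form has been found with UNC45B and HSP90. The comparison of CKO with control muscle therefore asks whether transcripts of these chaperones differ when SMYD1 is missing.

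None of the 10 chaperone transcripts passed the test of CKO against control muscle. At an adjusted P below 0.05 (limma, Benjamini-Hochberg over all genes tested), 0 of 10 were higher in CKOs and 0 of 10 were lower, against 2.02% and 0.268% of all genes tested. At an unadjusted P below 0.05 the counts were also 0 and 0, against 18.1% of all genes higher and 1.76% lower. For all 10 genes the ranges of the 2 groups overlapped, whereas the groups did not overlap for 2.23% of all genes (higher in CKOs) and 0.189% (lower). The log2 fold changes lay between -0.30 (Hspa8) and 0.28 (Stip1), and 6 of 10 were above 0. Their median was 0.081, while the median over all genes tested was 0.176, because 77.9% of all genes were on the higher side in CKOs. When the libraries were rescaled by median ratios, which moved the median of all genes to 0.008, the median of the 10 genes became -0.10. Again 0 of 10 passed either threshold in either direction, against 0.764% higher and 0.709% lower at the adjusted threshold and 6.62% and 7.44% at the unadjusted one.

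**Figure D1:**
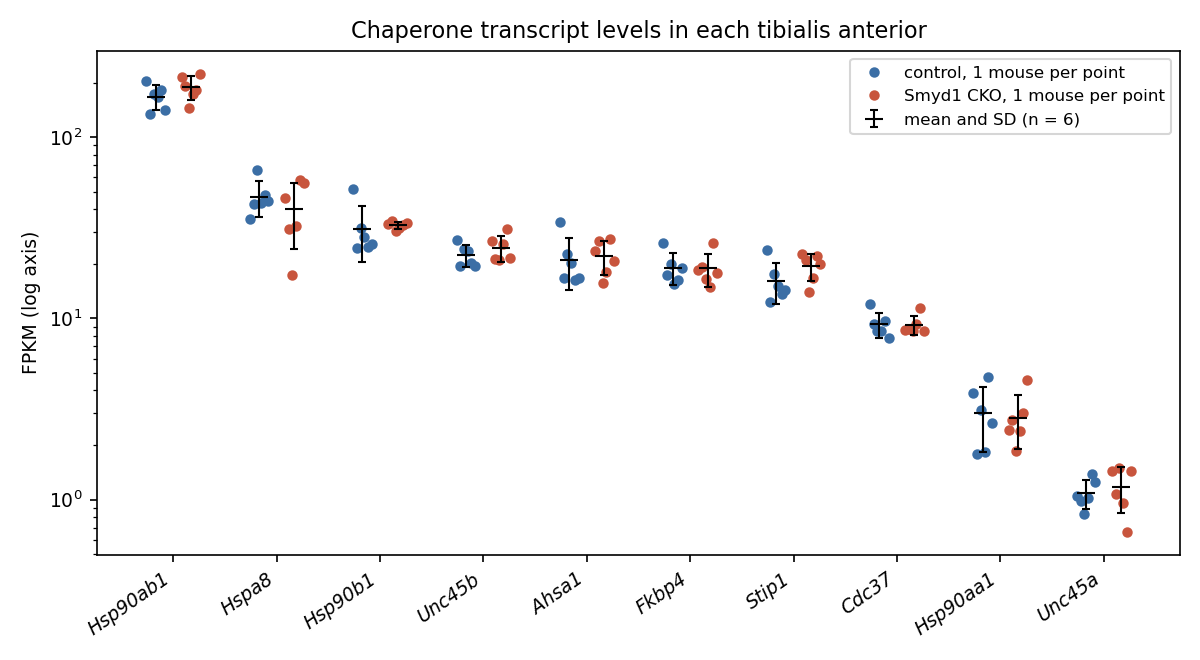
FPKM of the 10 chaperone genes (log axis) in each mouse, with 6 controls in blue and 6 CKOs in red; black bars give the mean and SD. Genes are ordered by their mean in controls, from Hsp90ab1 at 167.0 FPKM to Unc45a at 1.087 FPKM, and for every gene the 2 groups overlap.

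Unc45b was the striated muscle myosin chaperone and the form seen here in quantity, ranking 582 among all genes in control muscle. Its gene lies at chr11:82910550-82943403 on the plus strand (GRCm38), with 20 exons in its longest coding transcript, and the antisense genes Unc45bos and Slfn5os overlap it. In controls the lowest, median and highest levels were 19.33, 21.86 and 26.9 FPKM. In CKOs they were 21.05, 23.56 and 31.0 FPKM. The groups overlapped over most of their range, and only CKO 5, at 31.0 FPKM, lay above every control. The means were 22.26 ± 3.109 FPKM in controls and 24.53 ± 3.995 FPKM in CKOs (SD, n = 6 mice each). The fold change was 1.1 with a 95% interval of 0.918 to 1.31 (log2 0.14, SE 0.122, adjusted P = 0.543). A rise larger than the upper bound thus lies outside the interval, but a smaller one or a slight decrease does not.

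Unc45a, the general paralog (chr7:80325292-80341005, minus strand, GRCm38), was the lowest of the 10. Its levels ran from 0.8318 to 1.382 FPKM with a median of 1.035 FPKM in controls. In CKOs they ran from 0.663 to 1.484 FPKM with a median of 1.258 FPKM. The lowest and the highest of all 12 mice were both CKOs, CKO 5 and CKO 3. The log2 fold change was 0.075 (SE 0.193, adjusted P = 0.854), and the 95% interval of the fold ran from 0.792 to 1.4. At about 1 FPKM this gene rests on few fragments, and the number of reads is unknown, so the precision of single values could not be computed.

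The muscle form exceeded the general form by a similar factor in both groups. Within each mouse, the level of Unc45b was 18.9 times that of Unc45a in controls and 19.7 times in CKOs (geometric means). On the log2 scale the ratio was 4.241 ± 0.379 in controls and 4.302 ± 0.601 in CKOs (SD, n = 6 each), a difference of 0.061 (exact two-sided permutation test over 924 assignments of the mice, P = 0.851, and 0.851 after adjustment over the 5 ratios tested). CKO 5 had the highest ratio of the 12, at 5.349.

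By FPKM, the cytosolic HSP90 transcripts of this muscle were almost wholly those of the constitutive gene. Hsp90ab1 (chr17:45567775-45573271, minus strand, GRCm38) ranked 66 among all genes in control muscle. Its lowest, median and highest levels were 134.3, 170.0 and 204.6 FPKM in controls and 145.3, 187.7 and 224.2 FPKM in CKOs. CKO 6 and CKO 1 were above every control, and 5 of 6 CKOs were above the control median, but CKO 3 was near the low end of the controls. The means were 167.0 ± 25.97 and 189.0 ± 28.84 FPKM (SD, n = 6 each), with a fold change of 1.13 (95% interval 0.932 to 1.37, log2 0.18, SE 0.131, adjusted P = 0.453).

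Hsp90aa1, the stress-inducible cytosolic form (chr12:110690605-110702728, minus strand, GRCm38), was far lower. It ran from 1.793 to 4.721 FPKM with a median of 2.874 FPKM in controls, and from 1.848 to 4.566 FPKM with a median of 2.592 FPKM in CKOs. The 2 groups covered nearly the same range, and with a coefficient of variation of 38.8% this was the most variable of the 10 genes among controls. The log2 fold change was -0.047 (SE 0.246, adjusted P = 0.934), and the fold had a 95% interval of 0.673 to 1.39. Hsp90aa1 made up 1.73% ± 0.505 of the summed Hsp90aa1 and Hsp90ab1 level in controls and 1.46% ± 0.313 in CKOs. The log2 ratio of the inducible to the constitutive gene was -5.825 ± 0.42 in controls and -6.051 ± 0.288 in CKOs (exact two-sided permutation test, n = 6 each, P = 0.307, adjusted over 5 ratios 0.512). Reads with more than 1 mapping place were dropped by the authors, and the split between these similar genes may be affected by it.

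Hsp90b1 encodes GRP94, the HSP90 of the endoplasmic reticulum, which folds secreted and membrane proteins rather than myosin. Its gene lies at chr10:86690209-86705509 on the minus strand (GRCm38). Controls ran from 24.44 to 52.07 FPKM with a median of 27.03 FPKM, and CKOs from 30.38 to 34.47 FPKM with a median of 32.86 FPKM. All 6 CKOs lay above the control median and within 1.13-fold of each other, while control 1, at 52.07 FPKM, stood above all other mice and control 3, at 31.66 FPKM, lay within the CKO range. The coefficient of variation was 34.0% in controls and 4.54% in CKOs. With all 12 mice the log2 fold change was 0.12 (SE 0.155, 95% interval -0.21 to 0.451, adjusted P = 0.688). Without control 1 it was 0.279, with an unadjusted P of 0.00622 and an adjusted P of 0.0584. The log2 ratio of Hsp90b1 to Hsp90ab1 was -2.459 ± 0.29 in controls and -2.518 ± 0.176 in CKOs (exact two-sided permutation test, n = 6 each, P = 0.68, adjusted over 5 ratios 0.85).

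Among the 7 members with a promoter sequence, Hsp90b1 was the one whose promoter held the endoplasmic reticulum stress element. Through this element, unfolded proteins in that compartment are known to induce such genes. RefSeq promoter sequences (GRCm38.p6, 250 bases before to 50 bases after the start site) were found for 7 of the 10 genes, all but Hsp90aa1, Hsp90ab1 and Hspa8. The element was searched on both strands as CCAAT and CCACG with any 9 bases between them. It occurred in 0.12% of 32851 promoters, among the 7 in Hsp90b1 alone, with 2 matches. The 2 sites are printed below with the match in capitals, both on the minus strand, the strand of the gene. The first covers positions -212 to -194 from the start site (window chr10:86705634-86705660) and reads forward. The second covers -107 to -89 (window chr10:86705529-86705555) and reads in reverse. CCAAT alone, with which the element overlaps, occurred 6 times in this promoter, 4 times in that of Stip1, and in 37.41% of all promoters. A match gives the letters only and does not show that a factor binds.
Hsp90b1, first site: aagcCCAATCGCAAGGAGCCACGcttc
Hsp90b1, second site: agtgCGTGGTGAGGCACGATTGGtgag

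Hspa8, the constitutive cytosolic HSP70 that delivers proteins to HSP90, was the member with the lowest fold change and the widest spread among CKOs. Its gene lies at chr9:40800984-40810087 on the plus strand (GRCm38) and holds small nucleolar RNA genes (Snord14c, Snord14d and Snord14e) on the same strand. Controls ran from 35.44 to 66.08 FPKM with a median of 43.76 FPKM, and CKOs from 17.28 to 58.01 FPKM with a median of 39.34 FPKM. CKO 3 had the lowest level of all 12 mice and 3 of 6 CKOs exceeded the control median, so the groups overlapped. Levels differed up to 3.36-fold among CKOs and 1.86-fold among controls. The means were 46.64 ± 10.35 and 40.21 ± 16.0 FPKM (SD, n = 6 each), with a fold change of 0.812 (95% interval 0.561 to 1.17, log2 -0.30, SE 0.25, adjusted P = 0.508). Without CKO 3 the log2 fold change was -0.081 (adjusted P = 0.847).

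Stip1, the adaptor that bridges HSP70 and HSP90 (chr19:7020702-7039967, minus strand, GRCm38), had the highest fold change of the 10. Its lowest, median and highest levels were 12.37, 14.7 and 23.8 FPKM in controls and 14.05, 20.47 and 22.54 FPKM in CKOs. In all, 5 of 6 CKOs were above the control median, but control 1, at 23.8 FPKM, was above every CKO and all 6 CKOs lay within the control range. The fold change was 1.21 (95% interval 0.961 to 1.53, log2 0.28, SE 0.158, adjusted P = 0.335). Without control 1 the log2 fold change was 0.399 with an unadjusted P of 0.00873 and an adjusted P of 0.0691.

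Ahsa1, which stimulates the ATPase of HSP90 (chr12:87266479-87273998, plus strand, GRCm38), ran from 16.2 to 33.92 FPKM in controls and from 15.63 to 27.28 FPKM in CKOs, with medians of 18.51 and 22.15 FPKM. Control 1 was again the highest of the 12 mice. The log2 fold change was 0.087 (SE 0.185, 95% interval -0.308 to 0.481, adjusted P = 0.819). Fkbp4, the immunophilin FKBP52 (chr6:128429735-128438677, minus strand, GRCm38), ran from 15.51 to 26.0 FPKM in controls and from 14.85 to 26.17 FPKM in CKOs, nearly the same range. Its log2 fold change was -0.014 (SE 0.145, 95% interval -0.324 to 0.295, adjusted P = 0.968). Cdc37, which loads kinases onto HSP90 (chr9:21133222-21149982, minus strand, GRCm38), had the smallest difference of the 10. It ran from 7.803 to 11.98 FPKM in controls and from 8.491 to 11.45 FPKM in CKOs, and the fold change was 0.995 (95% interval 0.839 to 1.18, SE 0.116 on the log2 scale, adjusted P = 0.98). Apart from CKO 5, the CKOs lay between 8.491 and 9.301 FPKM.

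The heat shock element, the binding site of HSF1, was searched in the same 7 promoters, since several HSP90 co-chaperones are induced by heat shock. The tested forms were GAANNTTC and TTCNNGAA, each of which reads the same on both strands, and GAANNTTC extended by NNGAA, on both strands. The extended form occurred in 0.6% of all promoters and in 0 of the 7. Fkbp4 had the first short form at -151 to -144 (window chr6:128438790-128438817), a form found in 7.86% of all promoters. Cdc37 had the second at -170 to -163 (window chr9:21150087-21150114), found in 8.52%. Both windows are on the minus strand of GRCm38.p6, with the match in capitals.
Fkbp4: cgcttctctaGAAAGTTCtccgctcccg
Cdc37: cggcgggaacTTCCAGAAggcctcacca

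**Figure D2:**
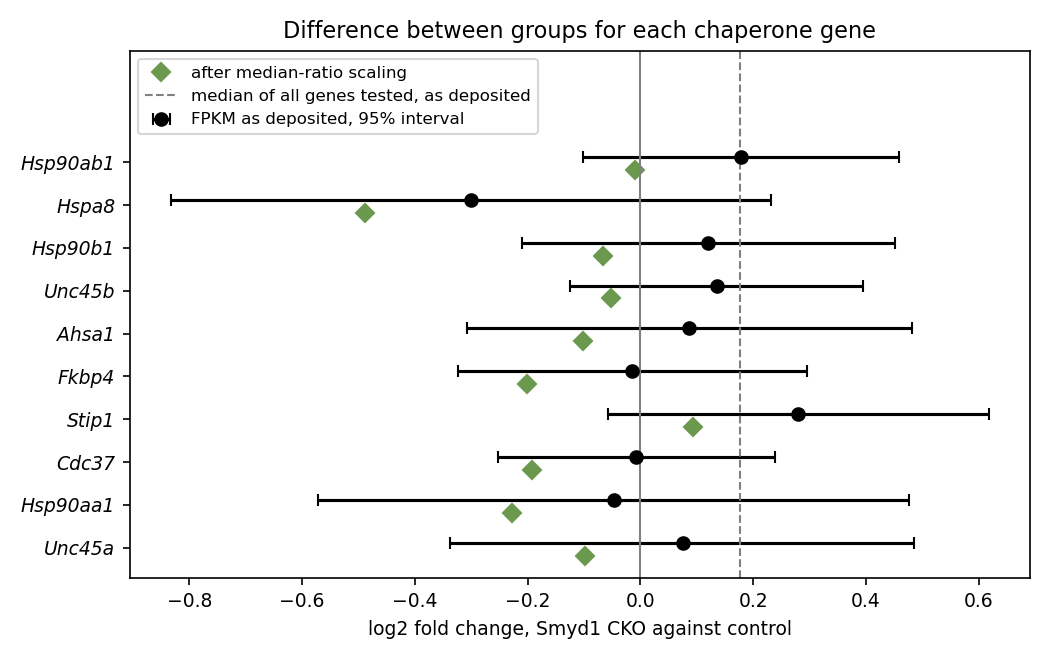
Log2 fold change (CKO against control) of each chaperone gene from the limma fit, with black points and bars for the estimate and 95% interval on the deposited FPKM and green diamonds for the estimate after median-ratio scaling; the dashed line is the median of all genes tested, 0.176. Every interval includes 0, and rescaling moves all 10 estimates down, with Hsp90ab1 from 0.18 to -0.009 and Unc45b from 0.14 to -0.052.

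In control muscle the 10 levels spanned a wide range. FPKM is a level per length of transcript, so the genes can be set side by side. Dropping reads with more than 1 mapping place may, however, lower genes with similar copies, such as Hsp90aa1 and Hsp90ab1. The effect of this on the order was not tested. The order was Hsp90ab1, Hspa8, Hsp90b1, Unc45b, Ahsa1, Fkbp4, Stip1, Cdc37, Hsp90aa1 and Unc45a, and it was the same whichever control was left out. Neighbours were compared within each mouse on the log2 scale by an exact two-sided sign-flip permutation test (n = 6 mice, 9 pairs, smallest possible P 0.03125). Hsp90ab1 exceeded Hspa8 by 1.85 ± 0.391 and Cdc37 exceeded Hsp90aa1 by 1.67 ± 0.483 (mean and SD), each in 6 of 6 mice. Of the 9 neighbour pairs, 6 reached that smallest P (adjusted P = 0.04688). Hspa8 and Hsp90b1 differed by 0.609 ± 0.59 (5 of 6 mice, exact P = 0.0625, adjusted P = 0.08036), Unc45b and Ahsa1 by 0.12 ± 0.232 (exact P = 0.3125) and Ahsa1 and Fkbp4 by 0.117 ± 0.235 (exact P = 0.375). For these 3 pairs a difference beyond the spread between mice was not shown, which does not make their levels equal. Unc45b and Fkbp4 were not neighbours and were not tested, and Unc45b was above Fkbp4 in every control.

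Differences between mice of 1 group were as large as any between the groups, and they were shared by several of the genes. Control 1 was the highest control for 7 of the 10 genes, and control 2 the lowest for 5. Among CKOs, CKO 3 was the lowest for 7 genes and CKO 5 the highest for 5. After each group's mean was subtracted, 37 of the 45 pairs of genes had a Pearson correlation above 0 over the 12 mice, with a median of 0.426. These values describe 12 libraries whose scaling all genes share, and no P was attached. The highest was 0.955, for Stip1 and Ahsa1, and Stip1 and Hsp90b1 had 0.839. The lowest was -0.63, for Unc45a and Unc45b, and CKO 5 had the highest Unc45b and the lowest Unc45a of the 12 mice.

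Control 1 also stood apart in markers of other cells. Its 6 fibroblast markers summed to 826.8 FPKM, against 220.2 to 277.3 FPKM in the other controls and 292.0 to 489.8 FPKM in CKOs. Its macrophage markers summed to 20.61 FPKM, against 6.055 to 8.729 FPKM in the other controls and 7.27 to 13.24 FPKM in CKOs. The part of these differences in its chaperone levels was not tested. In bulk muscle, a change in the share of a cell type and a change in RNA per cell cannot be told apart.

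**Figure D3:**
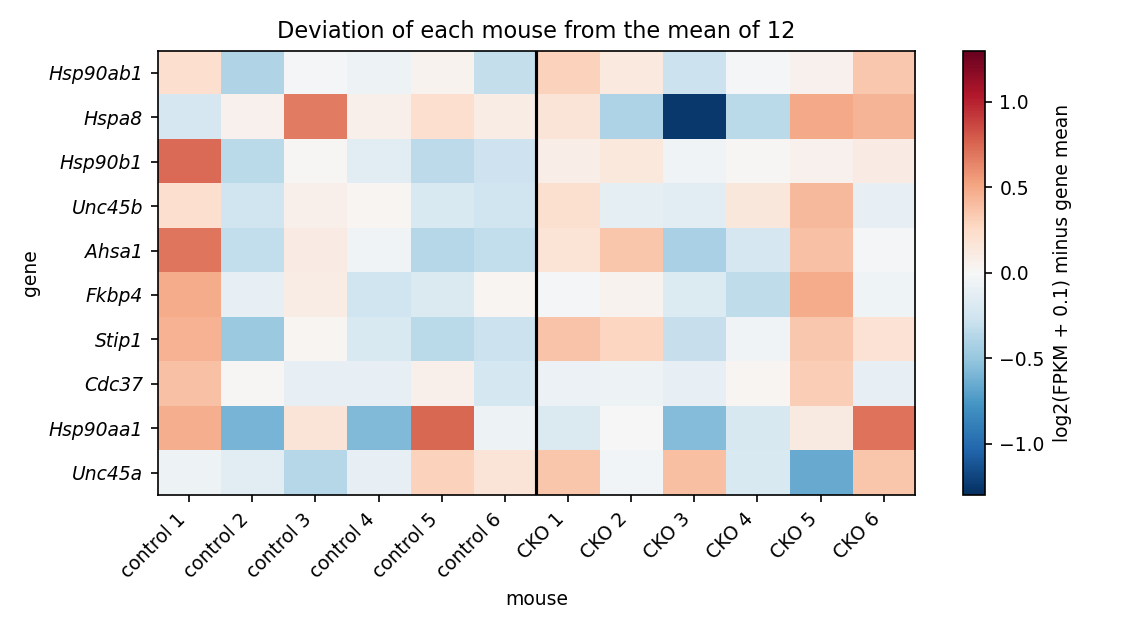
Deviation of each mouse (columns, controls 1 to 6 and CKOs 1 to 6) from the mean of all 12 for each chaperone gene (rows), in log2(FPKM + 0.1); red is above and blue below the mean. Control 1 is red in most rows, CKO 3 is blue in most, and Hspa8 in CKO 3 is the darkest cell at -1.25.

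The genes whose levels followed a chaperone most closely from mouse to mouse were looked up for Unc45b, Hsp90aa1 and Hspa8 among 7968 genes with a mean of at least 1 FPKM, again after each group's mean was subtracted and over 12 mice. For Unc45b they were Rtn2 (Pearson correlation 0.957), Rxrb (0.947), Pgm2 (0.936), Psmc3 (0.929) and Inpp5k (0.928). For Hsp90aa1 they were Ppme1 (0.91), Tatdn1 (0.887), Parg (0.885), Ubtd1 (0.879) and Inpp5f (0.829). For Hspa8 they were Kctd9 (0.906), Pdgfa (0.896), Ptpn11 (0.87), 2610507I01Rik (0.859) and Zbtb46 (0.857). None of the 3 lists held another of the 10 chaperones.

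Transcripts of the sarcomeric myosins did differ between the groups. Of 9 sarcomeric myosin heavy chain genes tested, 8 were higher in CKOs at an unadjusted P below 0.05, against 18.1% of all genes. After median-ratio scaling 7 were, against 6.62%. At an adjusted P below 0.05, 4 were higher, against 2.02%. The median log2 fold change of the 9 was 1.051. Myh1, the fast IIX myosin, rose 2.07-fold, from 974.7 ± 90.96 to 2082 ± 572.9 FPKM (log2 1.051, SE 0.179, adjusted P = 0.00733). Myh3, the embryonic myosin, rose in mean from 0.9063 ± 0.455 to 10.03 ± 9.786 FPKM (log2 2.67, SE 0.609, adjusted P = 0.0358). Its level was 11.97 to 25.67 FPKM in CKO 1, CKO 3 and CKO 6, but 1.302 to 2.765 FPKM in CKO 2, CKO 4 and CKO 5. The groups overlapped, with CKO 5 below the highest control (control 1, 1.806 FPKM). Myh13 (log2 0.951, adjusted P = 0.0128) and Myh7b (log2 0.941, adjusted P = 0.047) also rose. Myh7b was near the filter of 0.1 FPKM, with means of 0.1749 FPKM in controls and 0.4375 FPKM in CKOs. With a pseudocount of 1 its log2 fold change was 0.285. Of these 4, Myh1 alone passed the adjusted threshold after median-ratio scaling, and Myh3 and Myh7b also lost it when any of several single mice was left out (adjusted P up to 0.0926 and 0.119, both without CKO 1). Myh4, the fast IIB myosin and the largest part of the total, was singled out after its values were seen: it went from 3273 ± 552.9 to 5681 ± 1435 FPKM (log2 0.771, adjusted P = 0.0599). Summed over the family, myosin heavy chain levels were 4341 ± 479.2 FPKM in controls (3635 to 4819) and 7997 ± 1795 FPKM in CKOs (5531 to 9291), so the groups did not overlap. Members of this family are alike in sequence, and the discarding of reads that map to several places leaves the split between them uncertain. Such reads are missing from the summed level too, and how many were dropped is not known.

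Relative to summed myosin, Unc45b and Hsp90ab1 transcripts were lower in CKOs. These 2 ratios were added after the values were seen, and myosin is the part of them that differed. A gene that changed little between the groups would also give a lower ratio, so the P does not measure a change in Unc45b or Hsp90ab1. No other gene was set against summed myosin, and the adjustment over 5 ratios does not cover the choice of these 2. The log2 ratio of Unc45b to summed myosin was -7.849 at the lowest, -7.64 at the median and -7.252 at the highest in controls. In CKOs it ran from -8.772 to -7.555, with a median of -8.457. CKO 5 alone reached the control range. The difference in means was -0.719 (exact two-sided permutation test, n = 6 each, P = 0.0108, adjusted over 5 ratios 0.0271), with 0.00514 Unc45b FPKM per myosin FPKM in controls and 0.00312 in CKOs. With the mice paired by replicate number the difference was the same and the exact P was 0.0625. The log2 ratio of Hsp90ab1 to summed myosin ran from -4.844 to -4.33 in controls and from -5.991 to -4.842 in CKOs, where CKO 2 alone reached the control range. It differed by -0.676 (exact two-sided permutation test, n = 6 each, P = 0.00433, adjusted 0.0216). With each mouse left out in turn the exact P lay between 0.00216 and 0.026 for Unc45b and between 0.00216 and 0.0173 for Hsp90ab1.

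**Figure D4:**
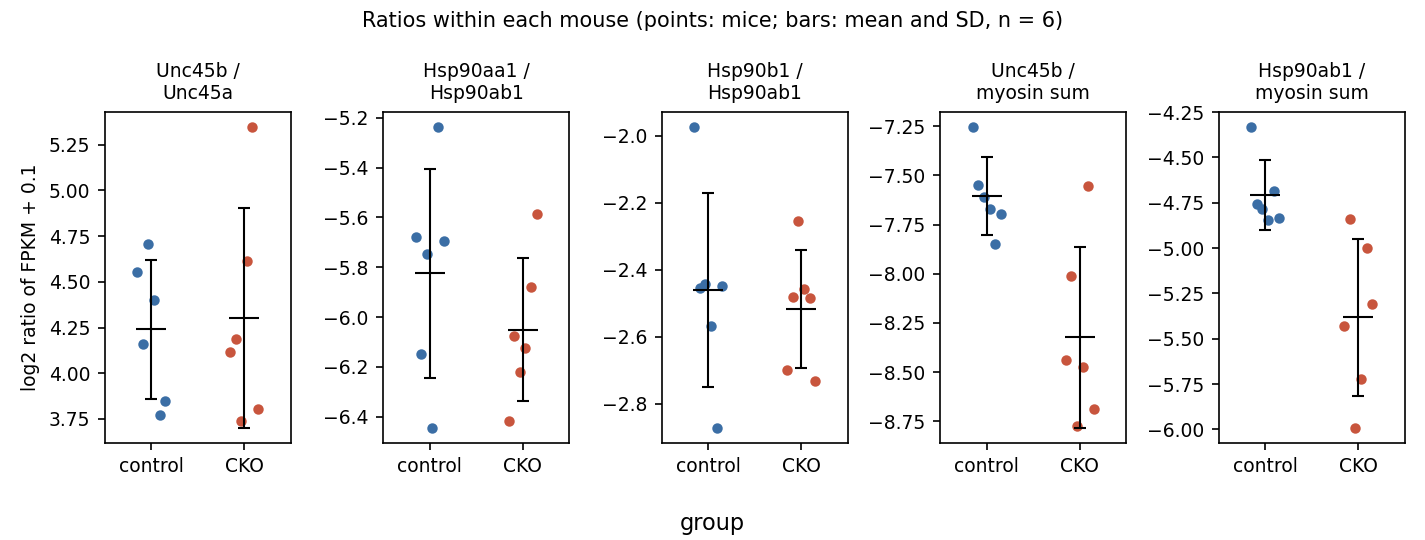
Log2 ratio of 2 FPKM values (each + 0.1) within each mouse, for 5 ratios, with 6 controls in blue, 6 CKOs in red and bars for mean and SD; the panels have separate axes. The 3 ratios between chaperones overlap widely, while both ratios to summed sarcomeric myosin are lower in CKOs by 0.719 (Unc45b) and 0.676 (Hsp90ab1).

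Beyond the 10 genes, no chaperone in the other lists passed the adjusted threshold. The counts that follow use an unadjusted P below 0.05, at which 18.1% of all genes were higher and 1.76% lower, or 6.62% and 7.44% after median-ratio scaling. Of 29 other HSP90 co-chaperones and paralogs tested, 4 were higher and 0 lower, or 1 and 0 after median-ratio scaling, with a median log2 fold change of 0.132. Rpap3 (log2 0.439, adjusted P = 0.0952) and Ptges3, the co-chaperone p23 (log2 0.40, adjusted P = 0.132), had the smallest P, followed by Sugt1 (log2 0.305, adjusted P = 0.222). Of 15 CCT chaperonin and prefoldin genes, which fold actin and tubulin, 3 were higher and 0 lower, or 0 and 0 after that scaling, with a median of 0.239. They were Cct7 (0.336), Cct5 (0.316) and Pfdn4 (0.331). Of 20 endoplasmic reticulum chaperones, 4 were higher and 0 lower, or 2 and 1 after that scaling, and the median was 0.285. They included Dnajb11, a J-domain partner of BiP (log2 0.395, adjusted P = 0.0844), P4hb, a protein disulfide isomerase (0.453, adjusted P = 0.137), and Canx, which encodes calnexin (0.299, adjusted P = 0.184). Of 19 J-domain genes, 2 were higher (Dnajc18 and Dnajb6) and 0 lower, or 0 and 3 after that scaling, with a median of 0.087. On the deposited FPKM, the shares higher in these 4 lists lay near or below that of all genes. After median-ratio scaling all these medians lay between -0.10 and 0.099.

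Control 1 moved with these lists too. The summed endoplasmic reticulum chaperones were 271.0 FPKM in control 1, 140.6 to 185.5 FPKM in the other controls and 179.8 to 215.8 FPKM in CKOs. Without control 1, Rpap3, Dnajc18, Cct7, Cct5, Dnajb11, P4hb and Canx passed the adjusted threshold, with adjusted P from 0.00697 (P4hb) to 0.0438 (Dnajc18), but so did many other genes: 1075 genes were higher over all genes in place of 257. The same 7 genes and Hsf2 (adjusted P = 0.0371) passed with sample weights, with which 1400 genes were higher.

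The inducible HSP70 genes were on the other side. At an unadjusted P below 0.05, 18.1% of all genes were higher and 1.76% lower. Of 20 HSP70, HSP110 and nucleotide exchange factor genes, 1 was higher at that threshold (Hspa1l, log2 0.497, adjusted P = 0.231) and 2 were lower, Hspa1a and Hspa1b, with a list median of 0.116. After median-ratio scaling 0 were higher and 4 lower, against 6.62% and 7.44% of all genes. Hspa1a ran from 0.2976 to 5.822 FPKM in controls and from 0.2798 to 0.8406 FPKM in CKOs (log2 -1.196, SE 0.531, adjusted P = 0.227). Hspa1b ran from 0.4553 to 7.946 FPKM in controls and from 0.2008 to 1.618 FPKM in CKOs (log2 -1.564, SE 0.551, adjusted P = 0.142). For both the highest level was that of control 5, and controls 1 and 4 lay within the CKO range. Without control 5 the log2 fold change of Hspa1a was -0.767 (adjusted P = 0.393) and that of Hspa1b -1.122 (adjusted P = 0.241). The 2 genes are nearly identical, so their separate values are uncertain. The 6 heat shock factor and mitochondrial chaperonin genes had 1 higher (Hsf2, log2 0.369, adjusted P = 0.129), 0 lower and a median of 0.013. Immediate early genes, which respond within minutes to handling and stimulation, had 0 of 9 higher and 3 lower, Egr1 (log2 -1.922, adjusted P = 0.0777), Junb (-1.109, adjusted P = 0.118) and Jun (-0.61, adjusted P = 0.142). Their summed level was 23.28 to 109.8 FPKM in controls and 25.12 to 46.26 FPKM in CKOs, and its part in the levels of the inducible chaperones was not tested.

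**Figure D5:**
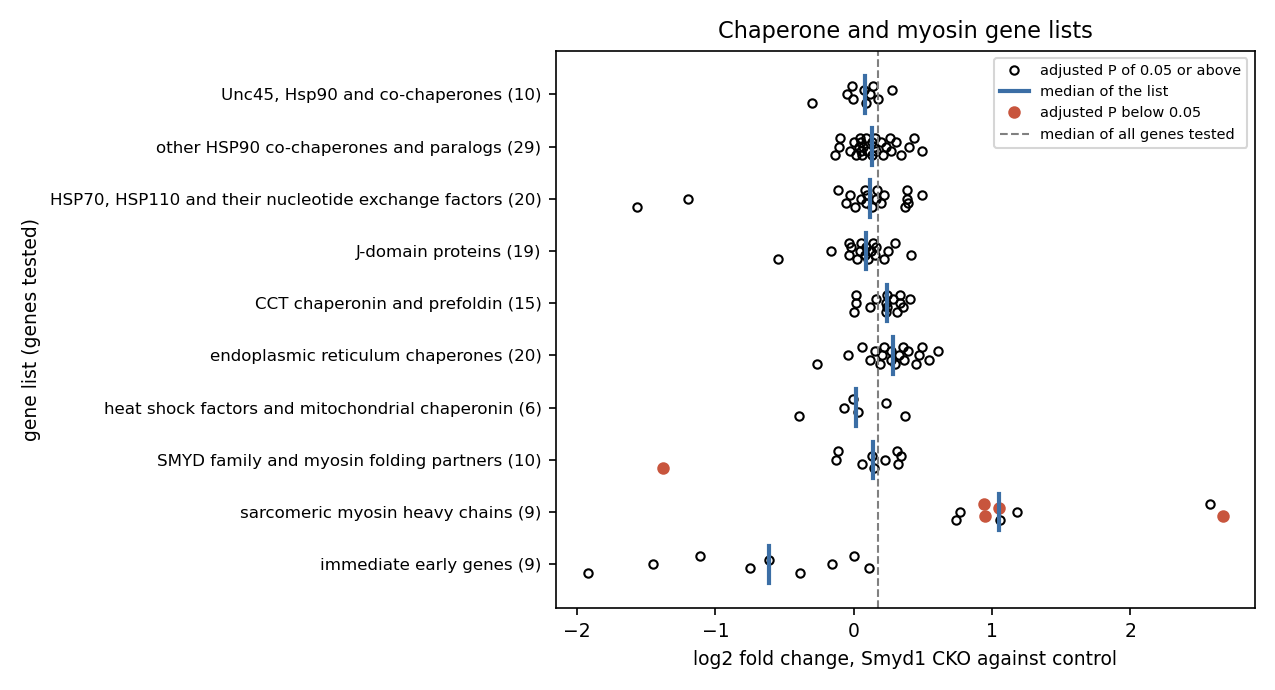
Log2 fold change (CKO against control) of each tested gene in 10 lists, with 1 point per gene, filled red where the adjusted P was below 0.05, a blue bar at each list's median and a dashed line at the median of all genes, 0.176. The chaperone lists cluster near the dashed line, 4 myosin heavy chains are filled on the right, and Smyd2 is filled on the left at -1.38.

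Among 10 genes of the SMYD family and myosin folding partners, 1 was lower at the adjusted threshold, against 0.268% of all genes tested. At an unadjusted P below 0.05, 1 was higher (Apobec2, log2 0.312, adjusted P = 0.176), against 18.1% of all genes. The list median was 0.139. Median-ratio scaling left 0 higher and 2 lower at that cutoff, compared with 6.62% and 7.44% over all genes. The gene lower at the adjusted threshold was Smyd2, which encodes a methyltransferase known to methylate HSP90 in the muscle cytoplasm. It fell from 62.12 ± 7.896 FPKM in controls to 24.14 ± 5.769 FPKM in CKOs (log2 -1.38, SE 0.138, adjusted P = 0.000289), and the groups did not overlap. Smyd1 itself was 37.39 ± 5.642 FPKM in controls and 34.14 ± 4.365 FPKM in CKOs (log2 -0.128, SE 0.116, adjusted P = 0.545). Its log2 fold change in the limma fit was -0.316 after median-ratio scaling (unadjusted P = 0.0018, adjusted P = 0.0797). With quantile normalization it was -0.227 (unadjusted P = 0.00898, adjusted P = 0.186). The values are per gene, and the sources used here do not give the deleted exons, so this does not check the labels. The cause of the Smyd1 level in CKOs was not tested. The study's western blots found SMYD1 protein undetectable in CKO tibialis anterior.

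Fibre type and cell markers differed in part between the groups, at an unadjusted P below 0.05 that 18.1% of all genes passed higher and 1.76% lower. Of 8 slow fibre markers, 7 were higher in CKOs at an unadjusted P below 0.05 and their sum was 22.12 to 57.56 FPKM in controls and 30.33 to 321.9 FPKM in CKOs. The sum was above every control in CKO 1 (155.4 FPKM), CKO 3 (92.99 FPKM) and CKO 6 (321.9 FPKM). In CKO 2, CKO 4 and CKO 5 it lay within the control range. All 5 satellite cell markers were higher at that unadjusted threshold (2.999 to 7.679 and 5.379 to 11.33 FPKM), as were 3 of 3 adipocyte markers tested (0.7579 to 2.536 and 2.162 to 6.819 FPKM), 2 of 6 fibroblast markers and 2 of 5 Schwann cell markers (3.624 to 8.85 and 6.434 to 12.47 FPKM). Of 8 fast fibre markers 2 were higher and 1 was lower. Endothelial (31.26 to 44.93 and 30.49 to 53.7 FPKM), macrophage and red blood cell markers (12.92 to 51.94 and 19.57 to 40.9 FPKM) had 0 called, and tendon markers (16.52 to 55.0 and 14.32 to 32.84 FPKM) had 1 of 5 lower. After median-ratio scaling the markers higher were 6 of slow fibres, 3 of satellite cells, 2 of adipocytes, 1 of fibroblasts, 2 of fast fibres and 0 of Schwann cells, and those lower were 4 of fast fibres, 2 of tendon and 1 of slow fibres. Their part in the chaperone levels was not tested.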

How the data were processed

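The authors depleted ribosomal RNA from total RNA with the ScriptSeq Complete Gold kit, mapped the reads with tophat and bowtie2 (2 mismatches or fewer), kept those with a single mapping place, and made the deposited FPKM values with cufflinks. The submitters' processing notes name TopHat2 2.0.10, Cufflinks 2.1.1 and build mm9. Each file held 23950 rows, of which 27 with a date in place of the symbol were left out. The files give no counts, so depth in reads is unknown. Relative depth, estimated from the spacing of FPKM under 0.15, ran from 0.986 (CKO 5) to 1.765 (CKO 1), with control 1 at 1.

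Groups and replicate numbers came from the labels. Controls and CKOs were compared with limma 3.58.1 (R 4.3.3) with an intensity trend on log2(FPKM + 0.1), so fold changes of low genes are understated, and P-values were adjusted by Benjamini-Hochberg over 12695 genes. Ratios within a mouse were compared by exact two-sided permutation tests (924 assignments, smallest P 0.002165). The study tested counts with DESeq, which FPKM do not allow. Positions came from GENCODE mouse release 21 (GRCm38) by symbol and promoters from RefSeq. Scripts were tested on simulated data. The members and gene lists were chosen with earlier results of these data known. Named were all 10 members, Smyd1, Smyd2, up to 3 genes per list by the smallest P, any past the adjusted threshold, and the 5 most similar genes for each of 3 members.

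Alternatives were quantile normalization, median-ratio scaling, no filter or one at 1 FPKM, a pseudocount of 1, sample weights, no trend, the replicate number as a block, and leaving out each mouse. The 2 ratios to summed myosin were added after the values were seen. No batch is given in the sources used here, and nothing says whether mice shared litters.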

Additional observations from a re-analysis of the deposited data

Results flagged for a closer look

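A mouse far from the rest of its group was looked for in 30 groups of 6 values, as a gap to the nearest mouse that exceeded Dixon's 95% critical share of the group's range, which chance alone gives in about 1 of 20 groups. It was found in 4. Control 1 was far above the other controls for Hsp90b1, the endoplasmic reticulum HSP90, at 52.07 FPKM (0.739 of the range), and for Ahsa1, the HSP90 ATPase activator, at 33.92 FPKM (0.641). Control 1 was also far above the other controls in the log2 ratio of Hsp90ab1 to summed sarcomeric myosin heavy chains, at -4.33 (0.694). CKO 5 was far above the other CKOs for Cdc37, the kinase co-chaperone, at 11.45 FPKM (0.726). All values are those of single mice.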

How the results depend on the processing

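In each of the alternatives run, 0 of 10 chaperone genes were called at the adjusted threshold, higher or lower. The lowest adjusted P was 0.0584 (Hsp90b1, without control 1). At the unadjusted threshold 1 was higher with sample weights and 0 to 2 with each mouse left out: Hsp90b1 and Stip1 without control 1, and 1 gene without CKO 3. The estimates lie near 0, and their sign changed with scaling: under median ratios Unc45a was -0.099, Unc45b -0.052, Hsp90ab1 -0.009, Hsp90b1 -0.067 and Ahsa1 -0.101, under quantile normalization Unc45a was -0.139 and Ahsa1 -0.017, and with sample weights Fkbp4 was 0.014. With each mouse left out, the log2 fold change ran from -0.429 to -0.081 for Hspa8, from -0.192 to 0.098 for Hsp90aa1, from -0.113 to 0.08 for Fkbp4 and from -0.071 to 0.069 for Cdc37. The log2 ratio of Unc45b to Unc45a ran from -0.148 to 0.173 and that of Hsp90b1 to Hsp90ab1 from -0.141 to 0.039. Genes higher in CKOs over all genes tested numbered 257, and 170 without a filter, 97 with median ratios, 101 with quantile normalization, 1400 with sample weights and 88 to 1075 with each mouse left out, the most without control 1 and the fewest without CKO 1. Genes lower numbered 34, and 90, 68 and 115 with median ratios, quantile normalization and sample weights, and 18 to 69 with each mouse left out. At an unadjusted P below 0.05 the split of 2300 higher and 224 lower became 841 and 944 with median ratios. Myh3 and Myh7b lost the adjusted threshold under median ratios (adjusted P = 0.0524 and 0.113), quantile normalization (0.0569 and 0.166), a pseudocount of 1 (0.0522 for both) and no filter (0.0663 and 0.067), Myh3 also without the trend (0.058) and Myh7b with the replicate block (0.0662). Leaving out single mice took them to 0.0926 and 0.119. Myh13 lost it under median ratios (0.0537) and quantile normalization (0.058), while Myh1 kept it in each alternative run. Whether the replicate numbers pair the mice is not known: the correlation of deviations within a number ran from -0.086 to 0.164, and the mice of numbers 4 and 5 alone were each closest to their own number. With the replicate block, 272 genes were higher and 40 lower, and the ratio of Unc45b to summed myosin differed by -0.719 with an exact P of 0.0625. Leaving out a control could not be tested for the order of levels, because 5 mice cannot give a P below 0.0625. Unknown read depth limits what can be said of Unc45a and Hsp90aa1, the lowest of the 10. The cause of these changes was not tested.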
